A study of Homo sapiens with 4 samples.

Results

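The genes described here are the protein-coding genes of a 7.7 Mb stretch of the short arm of chromosome 19 (chr19:11466062-19170563, hg19). They were chosen by position, and the stretch itself was chosen from the fold changes of the comparison described below, because its genes were lower on the whole in 1 of the 2 lines. JUNB, NOTCH3 and CRTC1 lie in it and were left out by the rule. The rule gave 206 genes, of 34675 genes in the table and 18327 protein-coding ones. Because the same folds chose the stretch, every level, count and p-value of these genes is a description and tests nothing about them.

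MDA-MB-231 is an established line of triple-negative breast cancer that grew out of a pleural effusion. Stable lines carried either an empty pcDNA plasmid or pcDNA with wildtype LKB1 carrying a FLAG tag, a kinase encoded by STK11 that acts upstream of AMPK, and both were grown in DMEM with serum on plastic. Total RNA of each line gave 2 libraries, 4 in all, prepared with a stranded protocol that covers whole transcripts. Whether a line was a clone or a pool, and whether its libraries came from separate cultures, is not said in the labels. The p-values therefore reflect the spread between the libraries at hand, which may be technical.

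The table holds the authors' own comparison and no value per library. Each gene has a fold change, its log2, a p-value and a p-value adjusted over all genes, and a gene is called here when the adjusted p is under 0.05. Whole read totals for each line, summed over its 2 libraries, were recovered from the folds. The LKB1 line was sequenced 1.04 times as deeply as the vector line, and the folds already take account of it. A standard error (SE) of a log2 fold, where printed, is the value that the deposited p-value and the recovered reads imply, since no spread between libraries was given.

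STK11 (ENSG00000118046.10, chr19:1189406-1228428, hg19, plus strand) was counted at 1321 reads in the vector line against 2112 in the LKB1 line. The authors' deposited table gives it a 1.54-fold higher level in the latter (log2 0.62, adjusted p = 0.00105). Which line is the numerator is not written in the header. A fold above 1 is taken here as higher in the LKB1 line on the strength of this gene, so the direction of every value below rests on it. A check of sample identity found 1 of the 2 groups at odds with the cell line in the labels. Of the 4 library titles 3 share a run tag, and the remaining library, from the LKB1 line, carries another. Of 8 endothelial marker genes in the table, 6 were called lower in the LKB1 line, with 1977 reads in all in the vector line against 312. ESAM alone gave 1197 and 129 of these reads, ERG and EMCN were not called, and PECAM1 and CLDN5 were not among the genes tested. Over all genes 3.24% were called lower and 2.55% higher. Leukocyte markers, 5 in the table, summed to 774 and 354 reads, with 1 called lower and 1 higher. Fibroblast markers, 7 in the table, summed to 456 and 423 reads, with 2 called lower and DCN at 0 in both lines. Luminal epithelial markers, 7 in the table, summed to 8131 and 8519 reads without KRT8, whose total was too large to recover, and none was called. Of 5 markers of mesenchymal-like MDA-MB-231 cells 1 was called lower and 1 higher. The part of the run, of these other markers or of the mismatch in the values below was not tested, and in bulk RNA fewer cells of a type and less RNA per cell cannot be told apart.

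The middle of the short arm of chromosome 19 is densely packed with short, GC-rich genes of unrelated function. It opens with a cluster of KRAB zinc finger genes, a family of DNA-binding repressors that grew by tandem duplication and that mostly silence transposable elements. Beyond the cluster lie genes that most cells use: RNA helicases, tRNA enzymes, transcription cofactors, vesicle adaptors, kinases and enzymes of the endoplasmic reticulum and mitochondria.

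Nearly all of these genes with at least 40 reads had a log2 fold below 0, mostly by a modest amount. Of the 206 genes, 10 had no read, 44 had 1 to 39 reads and 152 had at least 40 reads over both lines. Of the 152, 143 (94.1%) had a log2 fold below 0 and 9 above. The sign alone does not show a difference for a single gene, and 24 of the 152 lay between -0.25 and 0. Their median log2 fold was -0.47, a level of 72.1% of that in the vector line, and the middle 50% of the genes lay between -0.65 and -0.29. Among 12330 protein-coding genes outside the stretch with at least 40 reads the median was -0.02, with 52.4% below 0. The interquartile range of the log2 fold was 0.36 in these genes and 0.45 outside, and it was 0.33 and 0.35 among the genes of the 2 Mb before and after the stretch, so the spread was not particular to it. The genes passed the minimum of 40 reads through the sum of both lines, so a gene high in the vector line alone could pass.

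**Figure D1:**
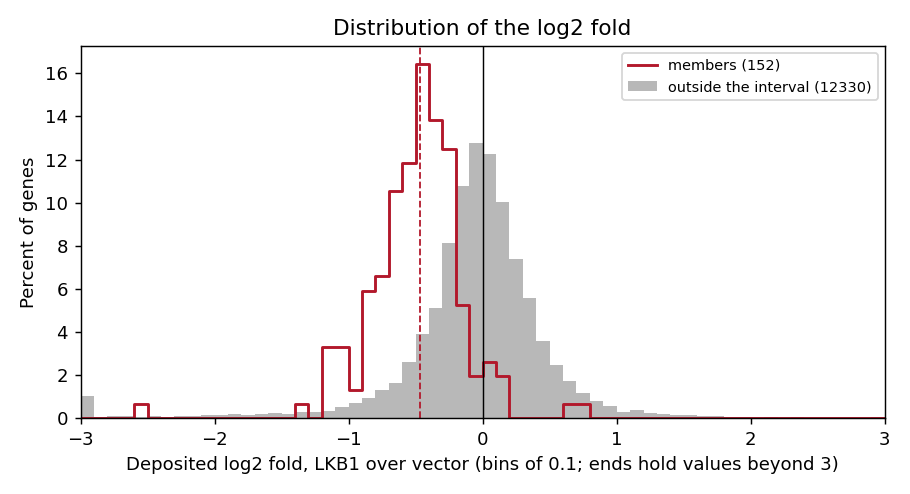
Distribution of the deposited log2 fold (x axis, LKB1 over vector, bins of 0.1) as the percent of genes in each bin (y axis), for the 152 chromosome 19 genes (line) and the 12330 protein-coding genes outside the stretch (bars), all with at least 40 reads. The dashed line is the median of the chromosome 19 genes, -0.47, and most of their distribution lies to the left of 0.

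In all, 58 of these genes were called lower and 0 higher in the authors' deposited table, 38.2% of the 152. Of all 34675 genes, 3.24% were called lower and 2.55% higher, and over protein-coding genes with at least 40 reads the shares were 7.3% and 5.9%. At an unadjusted p under 0.05 the counts were 95 lower and 2 higher, the latter ZNF136 and AC008686.1. With an assumed coefficient of variation of 0.2 between libraries, 7 were lower and 0 higher at an adjusted p under 0.05. The 58 had a median log2 fold of -0.66, or 63.3% of the vector level, and 49 of them were less than 2-fold lower. Near the threshold were CCDC130 (adjusted p = 0.04996) inside it, and ILVBL, BABAM1 and MAN2B1 (adjusted p = 0.0626, 0.0632 and 0.0686) outside it, with log2 folds from -0.61 to -0.44, so the folds on either side of the threshold overlapped. Within the stretch more reads went with more calls. Of the 21 genes with 40 or more but under 200 reads 4.76% were called lower, of the 53 with 200 or more but under 1000 reads 32.1%, and of the 78 with at least 1000 reads 51.3%. Among protein-coding genes outside the stretch the shares called lower in the same read classes were 14.1%, 7.02% and 4.17%. The medians of the classes within the stretch were -0.55, -0.47 and -0.47.

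**Figure D2:**
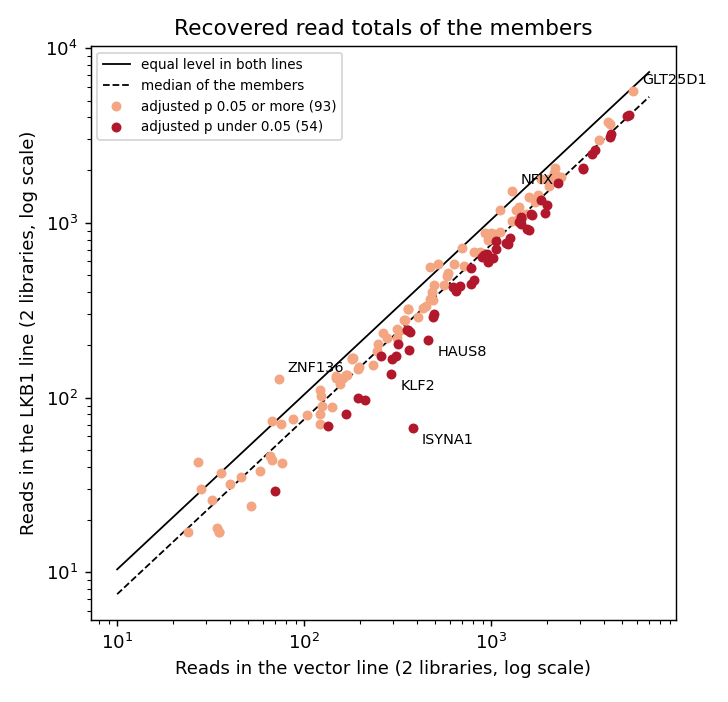
Reads recovered in the vector line (x axis, log scale) and in the LKB1 line (y axis, log scale), each summed over 2 libraries, for the genes with at least 40 reads and a recovered total. The solid line marks equal levels after the depth ratio of 1.04 and the dashed line the median; most points run along the dashed line, with ISYNA1 (380 and 67 reads) far below it and ZNF136 (73 and 127 reads) above.

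Most of the genes with many reads lay within 2 SE of the common median, with a spread wider than the SE. For this description all 73 genes with at least 1000 reads and a recovered total were given 1 shared coefficient of variation between libraries, 0.102, the median of the values implied for such genes. The SE of the log2 fold that follows ran from 0.15 to 0.17 and is not the gene's own implied SE, which genes within 0.3 of 0 do not have. The standard deviation between the genes was 0.24, above the median SE of 0.16. With these SEs, 35 of the 73 genes lay within 1 SE of the common median of -0.47 and 60 within 2 SE. More than 2 SE above it were DNASE2, NFIX, NR2F6, BST2, SLC27A1, GLT25D1, UNC13A and IFI30. More than 2 SE below it were FARSA, CC2D1A, SYDE1, SIN3B and ELL.

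The lowest log2 fold among the genes with at least 40 reads was that of ISYNA1 (ENSG00000105655.11, chr19:18545198-18549111, hg19, minus strand), which encodes the enzyme that makes inositol phosphate from glucose 6-phosphate, the first step of inositol synthesis. ISYNA1 reads numbered 380 in the vector line against 67 in the LKB1 line, and the level was 5.88-fold lower (log2 -2.56, SE 0.26, adjusted p = 4.35e-21, from the authors' table). Here and below, the first of 2 read totals is that of the vector line. HAUS8, a subunit of the augmin complex that branches spindle microtubules, had 461 and 213 reads (log2 -1.17, SE 0.20, adjusted p = 4.67e-07). KLF2 (ENSG00000127528.5, chr19:16435628-16438685, hg19, plus strand), a transcription factor best known from endothelium and resting lymphocytes, had 293 and 137 reads (log2 -1.15, SE 0.21, adjusted p = 3.3e-06). The endothelial markers were lower in the same line, and their part in the KLF2 value was not tested. MAST1, a microtubule-associated kinase, had 211 and 97 reads (log2 -1.18, SE 0.27, adjusted p = 0.000437). IL27RA, a subunit of the interleukin 27 receptor, had 168 and 81 reads (log2 -1.11, SE 0.28, adjusted p = 0.00251). These genes lay apart from each other along the stretch, and between them stood genes close to the median. MRI1 of the methionine salvage pathway (194 and 99 reads, log2 -1.02), GTPBP3, which modifies mitochondrial tRNA (364 and 187 reads, log2 -1.02), and C19orf44 (134 and 69 reads, log2 -1.01) were also called at a level under 50% of the vector line. MPV17L2, a mitochondrial membrane protein (309 and 173 reads, log2 -0.89), and ARRDC2, an arrestin-domain protein (295 and 166 reads, log2 -0.88), came next. LYL1, a basic helix-loop-helix factor of blood cells, had 70 and 29 reads (log2 -1.32, adjusted p = 0.0162) and is named after its value was seen, since its 99 reads fell under the 100 that the naming rule asks for.

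**Figure D3:**
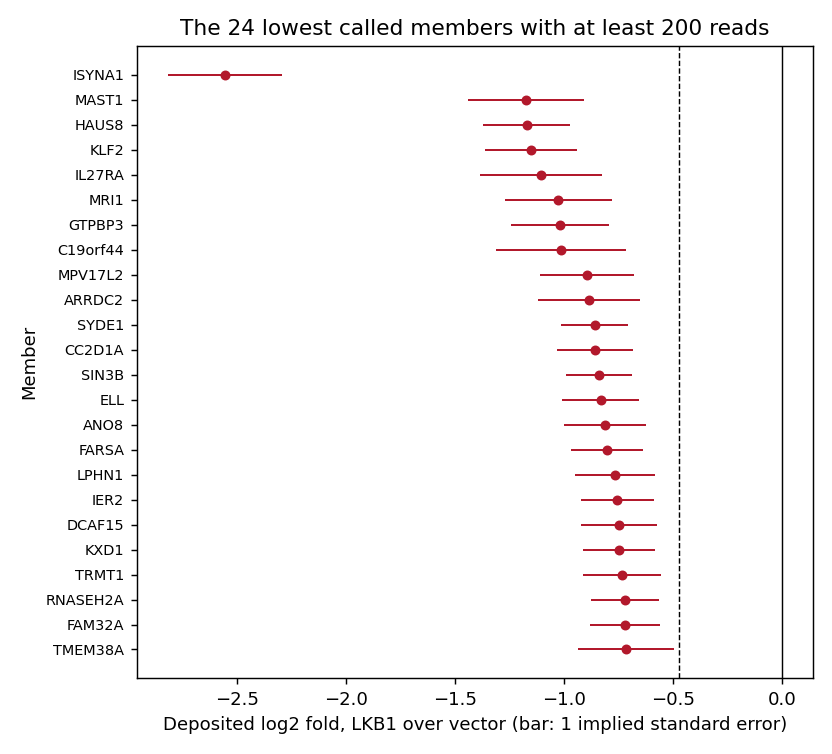
Deposited log2 fold (x axis, LKB1 over vector) of the 24 lowest called genes with at least 200 reads and an implied SE (y axis, 1 gene a row), with bars of 1 SE. The dashed line is the median of -0.47; ISYNA1 stands apart at -2.56 and the rest lie close together.

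Promoters are shown for the lowest called gene and for KLF2, and further on for genes above 0, to set the letters at their starts side by side. Each runs 5' to 3' on the gene's strand, 250 bases before the start and 50 after it in RefSeq (GRCh38.p14), with GC boxes (GGGCGG) and CCAAT boxes (CCAAT) of either strand in capitals, at chr19:18438084-18438383 (minus strand) and chr19:16324576-16324875 (plus strand).
ISYNA1: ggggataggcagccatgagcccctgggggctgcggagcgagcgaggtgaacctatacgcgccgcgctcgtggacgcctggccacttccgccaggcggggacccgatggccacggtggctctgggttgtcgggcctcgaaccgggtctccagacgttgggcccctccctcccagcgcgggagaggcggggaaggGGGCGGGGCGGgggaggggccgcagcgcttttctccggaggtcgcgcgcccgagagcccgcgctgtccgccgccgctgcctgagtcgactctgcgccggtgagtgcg
KLF2: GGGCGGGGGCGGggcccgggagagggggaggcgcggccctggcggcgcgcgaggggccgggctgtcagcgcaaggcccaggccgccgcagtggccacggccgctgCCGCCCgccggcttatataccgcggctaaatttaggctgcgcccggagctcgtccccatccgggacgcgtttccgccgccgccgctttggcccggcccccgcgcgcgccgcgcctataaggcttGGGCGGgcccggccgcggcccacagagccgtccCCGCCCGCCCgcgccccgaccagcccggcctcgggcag
A GC box was found 2 times in the ISYNA1 window and 6 times in that of KLF2, overlaps included. RefSeq promoters were matched for 160 of the 206 genes. Of 116 distinct promoters of genes with at least 40 reads, 105 (90.5%) held a GC box on either strand, against 70.4% of 9057 promoters of genes outside with at least 40 reads and 44.6% of all 27305 promoters. For CCAAT the shares were 53.4%, 36.5% and 35.7%. For TGACGTCA, the cyclic AMP response element, they were 2.59%, 3.27% and 1.98%, and for TATAAA 2.59%, 5.29% and 12.0%. The median number of CpG pairs in a window was 24, 26 and 14. A match is a run of letters and not a shown binding site.

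Above or near 0 stood a few well-measured genes. ZNF136 (ENSG00000196646.7, chr19:12273879-12300064, hg19, plus strand), a KRAB zinc finger gene, had the highest log2 fold among the genes with at least 40 reads, with 73 and 127 reads (log2 0.74, SE 0.29), and did not pass the threshold (adjusted p = 0.134). BST2 (chr19:17513748-17516457, hg19), which encodes tetherin, an interferon-induced protein that holds budding viruses at the cell surface, had 1110 and 1183 reads (log2 0.04). Their promoters, shown for contrast, lie at chr19:12162846-12163145 (plus strand) and chr19:17405581-17405880 (minus strand) in GRCh38.p14.
ZNF136: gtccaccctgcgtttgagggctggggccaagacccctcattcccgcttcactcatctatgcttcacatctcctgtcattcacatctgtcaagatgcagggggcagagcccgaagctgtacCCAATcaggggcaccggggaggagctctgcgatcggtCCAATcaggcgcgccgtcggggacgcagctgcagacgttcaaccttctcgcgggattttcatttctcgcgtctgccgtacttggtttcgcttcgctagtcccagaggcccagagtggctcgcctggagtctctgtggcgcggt
BST2: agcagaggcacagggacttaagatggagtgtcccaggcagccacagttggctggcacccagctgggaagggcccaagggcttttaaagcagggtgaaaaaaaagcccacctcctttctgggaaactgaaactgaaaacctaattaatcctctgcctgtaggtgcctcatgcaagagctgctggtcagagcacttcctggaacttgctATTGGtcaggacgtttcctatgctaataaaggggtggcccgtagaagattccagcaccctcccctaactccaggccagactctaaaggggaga
Neither window held a GC box, while the ZNF136 window held CCAAT 2 times and the BST2 window 1 time. These are single examples: a GC box stood in 40 of 45 promoters of called genes (88.9%), close to the 90.5% of all with at least 40 reads. CALR, the calcium-binding chaperone of the endoplasmic reticulum, had too many reads to recover and a log2 fold of 0.13. GLT25D1, a collagen galactosyltransferase, had 5744 and 5642 reads (log2 -0.08). FKBP8, a mitochondrial chaperone (4337 and 3692 reads, log2 -0.29), and PRKCSH, the beta subunit of glucosidase II (4214 and 3775 reads, log2 -0.21), were not called either. NFIX, a nuclear factor I transcription factor (1290 and 1518 reads, log2 0.18), SLC27A1, a fatty acid transporter (470 and 555 reads, log2 0.18), DNASE2, the acid nuclease of lysosomes (523 and 579 reads, log2 0.09), and the nuclear receptor NR2F6 (701 and 717 reads, log2 -0.02) were picked out after their values were seen. NFIX and CALR lie next to genes called lower. DNASE2, CALR and NFIX start between positions 12986025 and 13106422 (hg19), and NR2F6, BST2, SLC27A1 and GLT25D1 between 17342694 and 17666511. The values near 0 thus stood in separate parts of the stretch, largely in short runs.

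The zinc finger genes were the most numerous family and had low read totals. All 28 had at least 40 reads and 27 had a log2 fold below 0, with a median of -0.38, and 1 was called. ZNF791 had 366 and 237 reads (log2 -0.68, SE 0.20, adjusted p = 0.0141). ZNF44 (141 and 88 reads, log2 -0.73) and ZNF799 (76 and 42 reads, log2 -0.91) were lower by a similar amount without passing the threshold. Of the 28, 15 overlap another gene of the table on the same strand, members share much of their sequence, and ZNF625 is listed under 2 identifiers, so reads may be split or counted for more than 1 of them. Their transcripts had a median GC content of 42.7%, against 59.8% in the other genes of the stretch.

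Transcription and chromatin genes were called lower in 11 of 20 cases, 19 of which had at least 40 reads, with a median of -0.53. Besides KLF2, the smallest p-values belonged to SIN3B, a scaffold of histone deacetylase complexes (1943 and 1130 reads, log2 -0.84, SE 0.15), CC2D1A, a repressor and signalling scaffold (783 and 449 reads, log2 -0.86, SE 0.17), and the elongation factor ELL (806 and 471 reads, log2 -0.83, SE 0.18). NACC1, a BTB-domain corepressor, was among the called genes nearest to 0 (5327 and 4054 reads, log2 -0.45). NFIX and NR2F6, described above, were the members of this list nearest to or above 0.

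Genes of RNA processing and translation had the highest number of calls of the lists, 13 of 20, but not the highest share. All 20 had at least 40 reads and a log2 fold below 0, with a median of -0.56. The share called lower was 65%, against 66.7% of kinases, receptors and ligands with at least 40 reads. It was 38.2% over all such genes of the stretch and 7.3% over all such protein-coding genes. FARSA, the alpha subunit of phenylalanyl-tRNA synthetase, had 1546 and 922 reads (log2 -0.80, SE 0.17). DDX39A, an RNA helicase of mRNA export, had 3118 and 2036 reads (log2 -0.67, SE 0.15). FAM32A, a spliceosome component, had 1208 and 763 reads (log2 -0.72, SE 0.16). LSM4 of the U6 small nuclear RNA core (1451 and 1075 reads, log2 -0.49) was called at a smaller difference.

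Traffic and cytoskeleton genes numbered 19, of which 18 had at least 40 reads and 7 were called lower, with a median of -0.47. SYDE1 (1586 and 909 reads, log2 -0.86, SE 0.15), KXD1 of the complex that positions lysosomes (1020 and 632 reads, log2 -0.75, SE 0.16) and GIPC1, an adaptor of receptor endocytosis (3093 and 2066 reads, log2 -0.64, SE 0.14), were among them. TPM4, a tropomyosin of actin filaments, had a log2 fold of -0.55 (adjusted p = 0.00319), with too many reads to recover.

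Of 25 kinases, receptors and ligands only 12 had at least 40 reads, and 8 were called lower, with a median of -0.57 among the 12. LPHN1, an adhesion receptor, had 492 and 301 reads (log2 -0.76, SE 0.18). PRKACA, the catalytic subunit of protein kinase A, had 1631 and 1121 reads (log2 -0.60, SE 0.15). PIK3R2, a regulatory subunit of phosphoinositide 3-kinase (2284 and 1686 reads, log2 -0.49), and the adhesion receptor CD97 (5494 and 4149 reads, log2 -0.46) were called with smaller differences. EPOR, the erythropoietin receptor, had 67 and 73 reads (log2 0.07).

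Genes of metabolism, the endoplasmic reticulum and lysosomes stood nearer to 0: of 22, 21 had at least 40 reads, 4 were called lower and the median was -0.36. Besides ISYNA1 these were PGLS of the pentose phosphate pathway (684 and 434 reads, log2 -0.71, SE 0.17), TECR, which completes the elongation of very long chain fatty acids (1843 and 1355 reads, log2 -0.50, SE 0.15), and NDUFB7, a subunit of respiratory complex I (920 and 657 reads, log2 -0.54, SE 0.17). Whether this list differs from the others was not tested.

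Among 8 DNA repair and cell cycle genes 6 had at least 40 reads, 3 were called lower and the median was -0.61. RNASEH2A, the catalytic subunit of ribonuclease H2, had 1989 and 1256 reads (log2 -0.72, SE 0.16). ASF1B, a histone chaperone that also counts among the chromatin genes, had 1065 and 783 reads (log2 -0.50, SE 0.16), and BABAM1 of the BRCA1-A complex, with 1712 and 1311 reads (log2 -0.44, SE 0.15), was not called. The 8 genes of tandem families, chiefly cytochromes P450 of family 4F and adhesion and olfactory receptors, were nearly silent. Of these 4 had no read, and CYP4F22 had the most with 27 and 43 (log2 0.61, adjusted p = 0.811). The 57 genes in no list held the other 12 calls, with a median of -0.51 among the 28 with at least 40 reads.

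**Figure D4:**
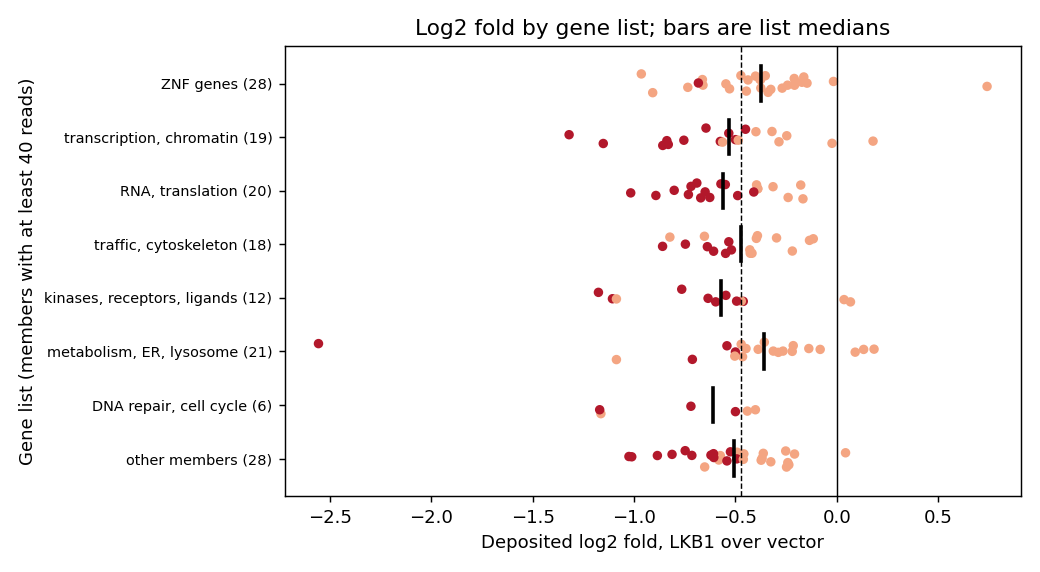
Deposited log2 fold (x axis, LKB1 over vector) of the genes with at least 40 reads, by gene list (y axis, number of genes in brackets), with called genes in dark red and list medians as bars. The dashed line is the median of all 152 genes, -0.47, and the medians drawn run from -0.61 for DNA repair and cell cycle to -0.36 for metabolism, endoplasmic reticulum and lysosome; the tandem families, with 1 such gene at 0.61, are not drawn.

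Along the chromosome the log2 folds were lowest in the middle of the stretch. In steps of 1 Mb from the start of the stretch the medians of the genes with at least 40 reads were -0.33, -0.46, -0.61, -0.53, -0.53, -0.53, -0.42 and, in the shorter last step, -0.43. The counts of genes called lower in these steps were 1, 13, 8, 8, 5, 11, 7 and 5. As shares of those with at least 40 reads these were 3.33%, 41.9%, 61.5%, 66.7%, 62.5%, 52.4%, 35% and 29.4%. Among protein-coding genes outside the stretch with at least 40 reads the share was 6.89%. The first step holds most of the zinc finger cluster. ELOF1 was the first called gene from the start.

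The stretch had no sharp start. Just inside it LPPR2 (587 and 518 reads, log2 -0.24) and EPOR differed little between the lines, as did RAB3D (936 and 869 reads, log2 -0.16), TMEM205 (387 and 362 reads, log2 -0.15) and CCDC159 (14 and 17 reads) just outside. SWSAP1, also just inside, had 17 and 11 reads (log2 -0.67, adjusted p = 1). In the 2 Mb before it, the median was -0.36 over 51 protein-coding genes with at least 40 reads, with 45 below 0 and 10 called lower. From 2 to 4 Mb before it, 30 genes had a median of -0.27, with 26 below 0, 8 called lower and 1 higher. Farther towards the tip of the arm, where STK11 lies, 143 genes had a median of 0.12, with 1 called lower and 6 higher. After the end of the stretch the level returned to that of other genes. HOMER3 (472 and 365 reads, log2 -0.43), SUGP2 (994 and 875 reads, log2 -0.24) and ARMC6 (1406 and 1231 reads, log2 -0.25) lie just inside it, and SLC25A42 (113 and 82 reads, log2 -0.52), TMEM161A (515 and 436 reads, log2 -0.30) and MEF2BNB-MEF2B (297 and 288 reads, log2 -0.10) just outside. In the 2 Mb after it 31 genes had a median of 0.03, with 14 below 0 and none called either way by the authors' deposited table.

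**Figure D5:**
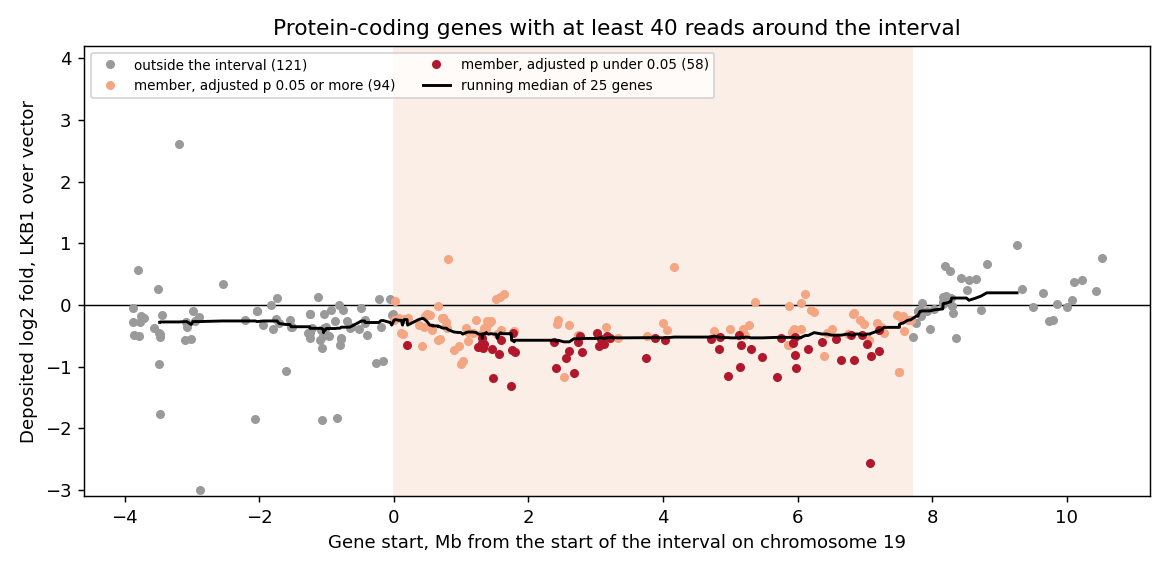
Deposited log2 fold (y axis, LKB1 over vector, 1 value below -3 drawn at -3) of protein-coding genes with at least 40 reads by the distance of their start from the start of the stretch (x axis, Mb; shaded area, the stretch of 7.7 Mb), with a running median of 25 genes. The median is below 0 across the shaded area and over the 4 Mb before it, and near or above 0 after it.

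The genes left out by the rule were lower as well. JUNB had 477 and 259 reads (log2 -0.94), CRTC1 had 590 and 376 (log2 -0.71) and NOTCH3 had 53 and 25 (log2 -1.13), all 3 called. Of 83 other genes of the stretch that are not protein-coding, 11 long noncoding RNAs and pseudogenes had at least 40 reads, with a median of -0.33 and 8 below 0. The long noncoding RNA UCA1, singled out after its value was seen, was 4.36-fold higher, with 113 and 513 reads (adjusted p = 9.1e-18). The miRNA genes MIR23A (1 and 80 reads, adjusted p = 1.1e-13) and MIR27A (0 and 30 reads, adjusted p = 3.34e-06) were called higher as well, while MIR639 (38 and 11 reads, adjusted p = 0.0279) and SNORD41, which lies within TNPO2 (adjusted p = 0.0118), were called lower.

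Transcripts of the 152 genes had a median GC content of 58.4%, against 47.9% outside, with a matched transcript for 98.5% of the 206. Outside the stretch, 3506 genes with a GC content like that of the middle 50% of these genes had a median log2 fold of -0.06. Overlaps bear on single values. In all, 50 of the genes overlap another gene of the table on the same strand, 10 of them called. CALR3, called with 4375 and 3231 reads (log2 -0.49), spans CHERP, SLC35E1 and MED26, which together had 4141 and 3048 reads, so its value may be theirs. Totals were identical in 3 overlapping pairs, CERS1 and GDF1 (35 and 17 reads), ZNF788 and AC022415.1 (359 and 323 reads), and HSH2D and CTD-2562J15.1 (14 and 18 reads), and their reads cannot be told apart.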

How the data were processed

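Stable vector and LKB1 lines of MDA-MB-231 were compared, with 2 libraries each. Tools listed without roles in the submitters' processing notes are TopHat2 2.0.6, CASAVA 1.8.2 and edgeR 2.6.0, with hg19 as the build. The counting method, its use of strand and its filters were not given in the sources used here. The authors deposited, per the file headers, a fold (a ratio) for each gene and the log2 of it. They also deposited a p-value with its adjusted form, and no value per library.

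Whole read totals per line were recovered from the folds, which take only certain values with prior counts of 0.254868 (LKB1) and 0.245132 (vector). This gave totals for 27911 of 28242 genes with reads (98.8%), searched up to 6000 reads per line, against 4.61% and 2.17% with slightly altered constants. Totals near that limit can rarely be a wrong match. An SE came from the variation between libraries that the p-value and reads imply, for genes with at least 200 reads and a log2 fold beyond 0.3 in size. The search limit, this bound and the read minimum of the mixed-up sample check were chosen after the data were seen. The method was tested on simulated data.

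The planned test over values per library could not be run, so the deposited calls are used. The genes, the lists and the rule for naming were chosen with earlier results of these data known. The rule names the 10 lowest and 6 highest folds among called genes with at least 100 reads, the 4 genes with the most reads that were not called, up to 4 genes of each list by p-value, and the 3 nearest each limit on both sides. A gene that the rule names is not reported here. Transcript GC content came from GENCODE 29 and promoters from RefSeq, matched by gene, with no coordinates taken between builds. Other read minimums, limits, scalings and thresholds were tried. Analyses ran in Python 3.11.15 with numpy 2.4.6, scipy 1.17.1 and pandas 2.3.3.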

Additional observations from a re-analysis of the deposited data

How the results depend on the processing

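The count of genes called lower, 58, was 37 at an adjusted p under 0.01 and 7 with a coefficient of variation of 0.2 between libraries assumed for every gene. Those 7 were ISYNA1, HAUS8, KLF2, GTPBP3, MAST1, IL27RA and RTBDN, the last with 11 and 0 reads and not called in the deposited table. Under the other settings it lay between 48 and 70. No gene was called higher under any of them, as in the deposited table. The percentage of genes below 0 was 87.2% with no read minimum and otherwise 90.4% to 95.4%. The median was -0.41 once a trend with GC was removed, a setting added after seeing the data, as was leaving out overlapping genes, and otherwise -0.50 to -0.44. The cause of these changes was not tested. Leaving out each library was planned and not run, because the table holds no value per library. No paired analysis was possible because no column carries a replicate. Depth limits what can be said of the 10 genes with no read and the 44 with 1 to 39 reads.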
